A study of Homo sapiens with 6 samples.

Results

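Natural killer (NK) cells read the surface of other cells through activating receptors, and 9 genes for ligands of 3 of these receptors are described here in 12Z cells, of 62696 genes listed in each count table. The members are MICA, MICB, ULBP1, ULBP2, ULBP3 and RAET1G, whose products bind NKG2D, PVR and NECTIN2, whose products bind DNAM-1 (CD226), and NCR3LG1, whose product B7-H6 binds NKp30. They were taken by symbol from a list selected on the comparison of the siRNA groups, with the differences between the groups already known. Their differences between the groups are therefore a description without a test.

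12Z is an established epithelial cell line from human endometriosis, and all 6 libraries carry the passage label p40. Cells were transfected with a control siRNA (Ambion #4390846, replicates A, B and C) or with the siRNA LINC01638_2 against the long non-coding RNA LINC01638 (replicates A, B and C), and RNA was taken 72 h later. The 2 groups of 3 libraries share the cell line, the transfection reagent and the time. Nothing in the labels says whether the replicates came from separate cultures, and p-values here cover only the spread among the 6 libraries, possibly a technical one. One siRNA was used, so an effect of its target and an effect of the siRNA itself cannot be told apart.

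NKG2D is an activating receptor of NK cells and of some T cells, and its ligands are distant relatives of MHC class I that many healthy tissues hold at low levels and that stressed, infected or transformed cells can display. MICA and MICB are transmembrane proteins encoded beside HLA-B, whereas the ULBP and RAET1 genes form a separate cluster on the long arm of the same chromosome; ULBP1, ULBP2 and ULBP3 are held in the membrane by a glycosylphosphatidylinositol (GPI) anchor. PVR (CD155) and NECTIN2 (CD112) are adhesion proteins of epithelial junctions that engage DNAM-1, which activates NK cells, and TIGIT, which restrains them. B7-H6 is a B7 family protein. Changes in endometrial and peritoneal NK cells have long been studied in endometriosis, but only the ligand side was measured here.

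Promoter sequence is shown for the 2 pairs of neighbouring paralogues whose differences are set against each other below, MICA with MICB and ULBP1 with ULBP2. Each line gives the 250 bases before the gene's start in RefSeq on GRCh38.p14, read 5′ to 3′ on the gene's own strand, which is the plus strand for all 4. RefSeq starts can differ from those of GENCODE 29, used for the gene spans given further on, and the MICA and MICB windows lie inside those spans. Capitals mark every match, on either strand, to 7 short motifs: the heat shock element core GAANNTTC, the GC box GGGCGG, the CCAAT box CCAAT, the cAMP response element half-site TGACG, the AP-1 site TGANTCA, the E2F site TTTCCCGC and the E-box CACGTG.
MICA, chr6:31403345-31403594: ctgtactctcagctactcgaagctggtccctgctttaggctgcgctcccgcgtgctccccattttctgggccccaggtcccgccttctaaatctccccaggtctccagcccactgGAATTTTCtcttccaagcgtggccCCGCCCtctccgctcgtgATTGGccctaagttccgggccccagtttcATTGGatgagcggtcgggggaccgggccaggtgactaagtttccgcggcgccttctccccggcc
MICB, chr6:31497895-31498144: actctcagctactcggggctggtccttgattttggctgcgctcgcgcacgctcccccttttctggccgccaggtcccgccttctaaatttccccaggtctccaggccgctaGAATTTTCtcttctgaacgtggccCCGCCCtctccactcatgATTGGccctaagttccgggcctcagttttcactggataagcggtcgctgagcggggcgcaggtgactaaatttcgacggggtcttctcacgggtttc
ULBP1, chr6:149963693-149963942: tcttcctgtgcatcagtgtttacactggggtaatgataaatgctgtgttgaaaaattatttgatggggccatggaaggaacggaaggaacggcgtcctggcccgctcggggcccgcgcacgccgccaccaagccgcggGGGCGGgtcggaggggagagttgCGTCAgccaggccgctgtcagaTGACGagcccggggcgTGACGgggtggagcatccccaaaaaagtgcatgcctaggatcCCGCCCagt
ULBP2, chr6:149941764-149942013: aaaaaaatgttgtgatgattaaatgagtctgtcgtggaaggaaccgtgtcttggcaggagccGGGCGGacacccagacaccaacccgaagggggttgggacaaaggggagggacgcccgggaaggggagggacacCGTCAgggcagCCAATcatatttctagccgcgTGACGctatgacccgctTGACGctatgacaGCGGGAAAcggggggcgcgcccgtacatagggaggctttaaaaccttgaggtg

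The MICA and MICB windows were alike in 209 of 250 bases (83.6% of the window) in a global alignment. The next most alike pair of the 9 members, ULBP2 and RAET1G, matched in 61.6%. Both MICA and MICB held 1 heat shock element core, 135 and 139 bases before the start, and 1 GC box, 111 and 115 bases before it. A heat shock element core was found in 5.78% of the 35093 promoter windows of the same length and in no other member. MICA held 2 CCAAT boxes and MICB 1. ULBP1 and ULBP2 each held 3 cAMP response element half-sites, a number reached by 1.01% of all windows, and ULBP2 held the only E2F site among the members (1.39% of all windows). GC boxes stood in 8 of the 9 member windows, against 42.6% of all windows, and were absent from that of PVR. The ULBP3 window, not printed, held 6 of them. Bases G and C made up 56.4% (RAET1G) to 72% (ULBP3) of the member windows, beside a median of 58% over all windows. The part of this base content in the GC box count was not tested. Matches are letters in these windows and were not tested as binding sites.

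LINC01638 was lower in the cells that received its siRNA, and much of the transcriptome differed between the groups. LINC01638 stood at 407, 334 and 414 counts in control libraries A, B and C and at 125, 103 and 123 counts in the LINC01638 siRNA libraries (log2 fold change −1.87, SE 0.111, edgeR adjusted p = 3.73e-11). Total counts in genes ran from 45617234 to 58148664 per library. At an edgeR p of 0.05, adjusted over 18569 genes, 4887 genes (26.3%) were higher under LINC01638 siRNA and 5503 (29.6%) lower. Counts were scaled by TMM, which sets libraries to a common level over most genes. With plain library totals in its place, which moves the median log2 fold change of all genes from −0.00 to 0.10, these became 6349 and 4288. Reads outside annotated exons made up 8.32% to 10.1% of mapped reads in control libraries and 12.1% to 15.1% in LINC01638 siRNA libraries (p = 0.1 in a two-sided exact permutation test, the least that 3 against 3 can give), and their part in the values below was not tested. Of 11 markers of NK cells and leukocytes, 5 were at 0 in all 6 libraries, among them NCR1, GZMB and CD3E, and NCAM1 alone was above 1 CPM, counts per 1000000 counts in genes after TMM scaling (44.0 ± 5.85 and 38.8 ± 2.81 CPM). NCAM1, a neural adhesion gene also used as an NK marker, did not pass (edgeR adjusted p = 0.0867), but it passed as lower without control replicate A (0.0121) or LINC01638 siRNA replicate A (0.0323), in the unstranded column and with no filter. Of the receptors of the 9 ligands, KLRK1 (NKG2D) and TIGIT were at 0 in all libraries and CD226 (DNAM-1) stood at 0.573 ± 0.0296 and 0.401 ± 0.141 CPM.

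All 9 ligand genes passed the filter on low counts, 8 of them were called higher (background 26.3%) and none lower. In 7 of 9 every LINC01638 siRNA library lay above every control library, as in 29.4% of all genes tested, and 6 of 9 were at least 2-fold higher and past the threshold, as in 5.35% of all genes tested. The median log2 fold change of the 9 was 1.40, beside −0.00 over all genes tested. These counts describe genes selected on the same comparison. In bulk RNA, a larger share of cells with a transcript and more transcript per cell cannot be told apart.

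**Figure D1:**
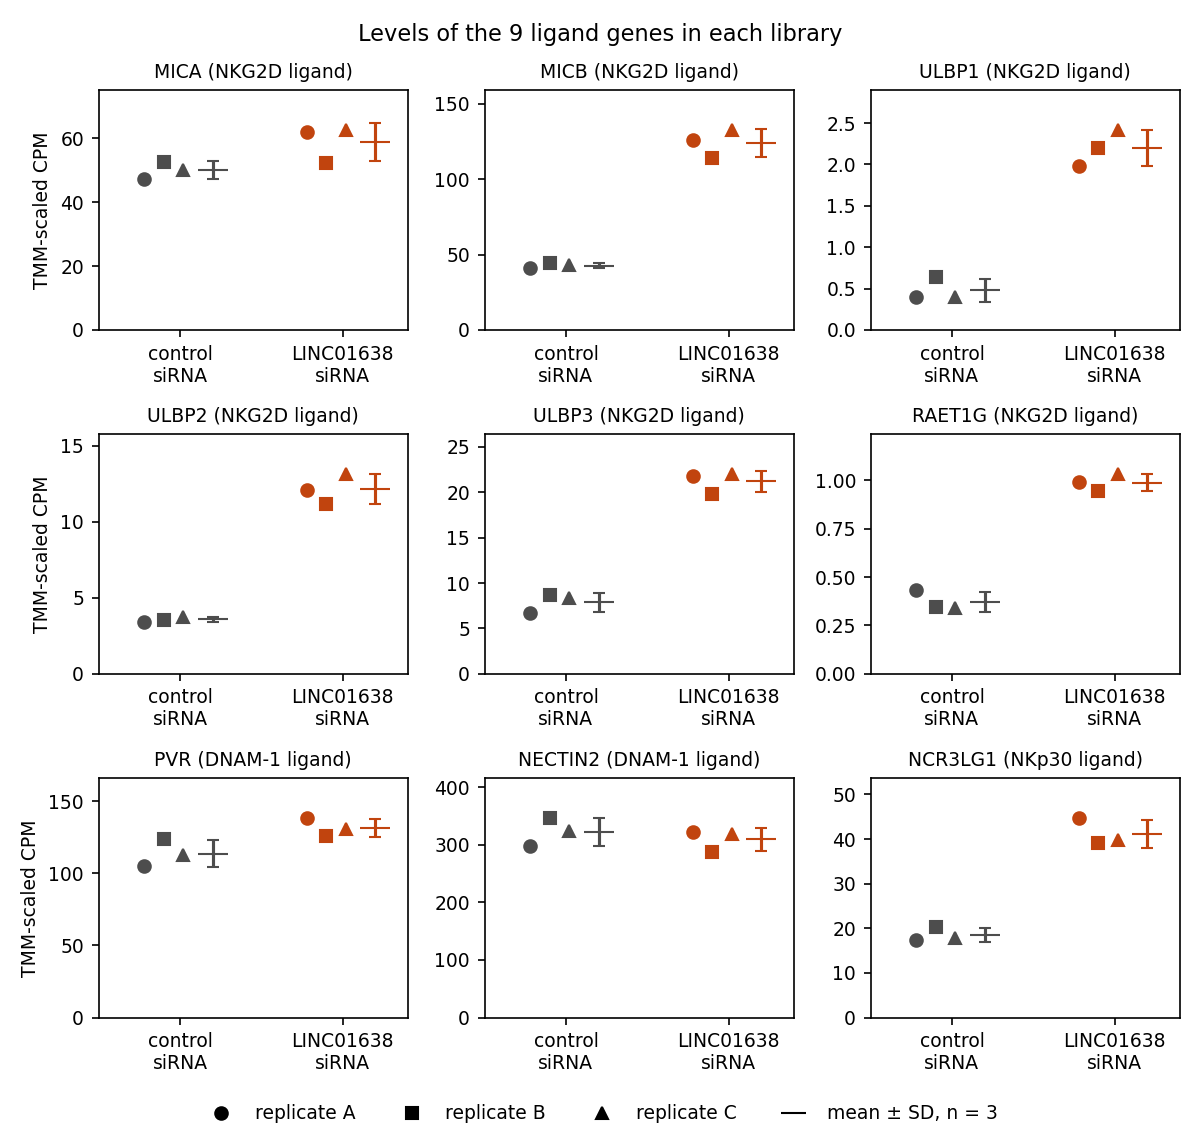
Each panel plots the level of 1 ligand gene in TMM-scaled CPM (vertical axis, from 0) in control siRNA and LINC01638 siRNA libraries; symbols are replicates and the bar is mean ± SD (n = 3). MICB, ULBP1, ULBP2, ULBP3, RAET1G and NCR3LG1 lie in 2 separate bands, whereas the groups overlap for MICA and NECTIN2.

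MICB and MICA, the 2 neighbouring NKG2D ligand genes of the MHC, differed in size of response. MICB (chromosome 6, 31494881 to 31511124, plus strand) stood at 40.9, 44.5 and 42.9 CPM in control libraries A, B and C and at 126, 114 and 132 CPM in LINC01638 siRNA libraries A, B and C. The lowest LINC01638 siRNA library was 2.57 times the highest control library. This was a 2.91-fold difference (log2 fold change 1.54, SE 0.0577), from 2182, 1942 and 2273 counts to 6881, 5936 and 7963. MICA (chromosome 6, 31399784 to 31415315, plus strand) stood at 47.1, 52.6 and 50.0 CPM in control and at 62.0, 52.1 and 62.4 CPM in LINC01638 siRNA libraries. Its log2 fold change was 0.24 (SE 0.0664), and LINC01638 siRNA replicate B lay below control replicate B, so the groups overlapped. MICA was thus the more abundant of the 2 per kilobase of exon in every control library and MICB in every LINC01638 siRNA library. The ratio of MICB to MICA, both in CPM per kilobase, was 0.741, 0.720 and 0.731 in control libraries and 1.73, 1.87 and 1.81 in LINC01638 siRNA libraries. The 250-base windows of these 2 genes, printed above, are the most alike of all member pairs, and a link between these windows and the levels was not tested. Of the 50-base windows of their annotated transcripts, 97.4% (MICA) and 97.1% (MICB) occur in no other gene's transcripts, and 45 windows are shared between the 2 genes.

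The ULBP and RAET1 members, ULBP1, ULBP2, ULBP3 and RAET1G, all differed in the same direction and by more than 2-fold. ULBP1 (chromosome 6, 149964007 to 149973710, plus strand) was the lowest member per kilobase in control libraries, with 21, 28 and 21 counts in control libraries A, B and C and 108, 114 and 145 in LINC01638 siRNA libraries A, B and C. Its level was 0.394, 0.641 and 0.396 CPM in control and 1.98, 2.19 and 2.41 CPM in LINC01638 siRNA libraries. The log2 fold change of 2.22 (SE 0.221) was the largest of the 9, and 124 of 18569 genes had a larger one. Every LINC01638 siRNA library was more than 3 times the highest control library (3.09 at the lowest).

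ULBP2 (chromosome 6, 149942000 to 149949235, plus strand), which lies next to ULBP1, was more abundant and tighter between replicates. It stood at 3.43, 3.55 and 3.77 CPM in control and at 12.1, 11.2 and 13.1 CPM in LINC01638 siRNA libraries (log2 fold change 1.76, SE 0.0981). Its replicates varied by 4.77% (coefficient of variation) in control and 8.14% in LINC01638 siRNA libraries, against 29.8% and 9.87% for ULBP1. Only 67.8% of its 50-base windows occur in no other gene's transcripts, most of the shared ones in RAET1L, so its count is uncertain to that extent. ULBP3 (chromosome 6, 150063150 to 150069095, minus strand) stood at 6.68, 8.68 and 8.31 CPM in control and at 21.8, 19.9 and 22.0 CPM in LINC01638 siRNA libraries (log2 fold change 1.43, SE 0.0898). The windows found in no other gene made up 87.6% for ULBP3 and 93.1% for ULBP1. Per kilobase, ULBP3 was 3.00 ± 0.341 times ULBP2 in control and 2.39 ± 0.0915 times in LINC01638 siRNA libraries (SD, n = 3 each), and the lowest control ratio, 2.66, lay above the highest LINC01638 siRNA ratio, 2.45.

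RAET1G (ULBP5; chromosome 6, 149916878 to 149923121, minus strand) was counted 23, 15 and 18 times in control and 54, 49 and 62 times in LINC01638 siRNA libraries, 0.432, 0.343 and 0.339 CPM against 0.989, 0.943 and 1.03 CPM. Its log2 fold change was 1.40 (SE 0.264). RAET1E-AS1 overlaps it on the other strand, and 2.00% to 28.1% of the counts at RAET1G fell on that strand (3.57% to 27.6% at ULBP1). In counts taken without regard to strand the log2 fold change was 0.97. The windows found in no other gene made up 81.7%, and ULBP2 shared most of the rest. The remaining NKG2D ligand genes, RAET1E (ULBP4) and RAET1L (ULBP6), had counts too low to test. Of 1300 ULBP2 windows, 382 also occur in RAET1L, so the RAET1L count is uncertain too and may be too low. RAET1L was counted 0, 3 and 5 times in control libraries A, B and C and 7, 15 and 11 times in LINC01638 siRNA replicates, and RAET1E at most 3 times in any library. RAET1L passed the threshold as higher when no filter was applied, without control replicate B, and without LINC01638 siRNA replicate A.

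Summed over the 6 members that bind NKG2D, transcript level per kilobase was 44.1, 49.8 and 47.8 CPM per kilobase in control libraries A, B and C. It was 103, 92.4 and 107 CPM per kilobase in LINC01638 siRNA libraries A, B and C, 2.14 times the control mean, and the groups did not overlap. MICA made up the largest share in control libraries (44.3% ± 0.475, n = 3) and MICB in LINC01638 siRNA libraries (44.0% ± 0.379, n = 3). MICB's control share was 32.4% ± 0.709, and MICA's share under LINC01638 siRNA was 24.4% ± 0.752. ULBP3 made up 16.9% ± 1.32 and 21.3% ± 0.478, and ULBP2 5.63% ± 0.305 and 8.92% ± 0.209. ULBP1 and RAET1G each stayed below 1% of the sum in every library, so the member with the largest fold change contributed little to it.

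**Figure D2:**
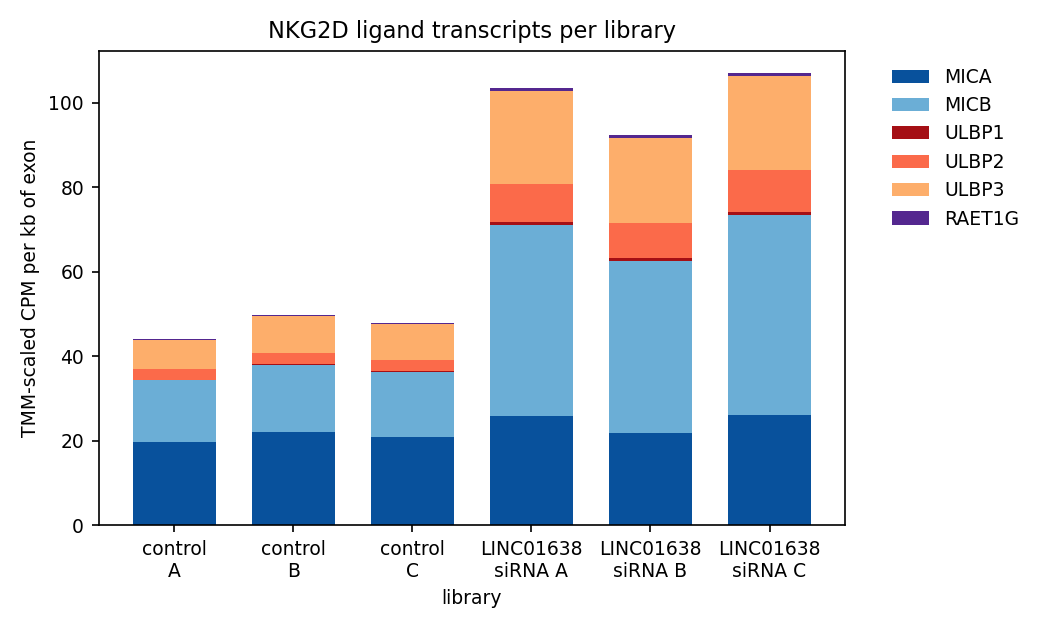
Stacked bars show TMM-scaled CPM per kilobase of annotated exon (vertical axis, from 0) of the 6 NKG2D ligand genes in each library (horizontal axis). The sum stands at 44.1 to 49.8 in control libraries and 92.4 to 107 in LINC01638 siRNA libraries, with the MICB and ULBP3 segments growing most.

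The DNAM-1 ligands were the most abundant members in control cells and had the smallest log2 fold changes. That of the NKG2D ligand gene MICA (0.24, SE 0.0664) was close to that of PVR. PVR (chromosome 19, 44643798 to 44663583, plus strand) stood at 105, 124 and 113 CPM in control and at 138, 126 and 130.5 CPM in LINC01638 siRNA libraries. The groups did not overlap, but the lowest LINC01638 siRNA library was 1.02 times the highest control library, and the log2 fold change was 0.21 (SE 0.0575). NECTIN2 (chromosome 19, 44846175 to 44889228, plus strand) stood at 298, 346 and 324 CPM in control and at 323, 286 and 319 CPM in LINC01638 siRNA libraries. It was the member that did not pass the threshold, with a log2 fold change of −0.06 (SE 0.0603; 0.04 with library totals in place of TMM scaling). Summed per kilobase, the 2 DNAM-1 ligands came to 118 ± 9.17 CPM per kilobase in control and 119.9 ± 6.89 CPM per kilobase in LINC01638 siRNA libraries (SD, n = 3 each). The ratio of the NKG2D ligand sum to the DNAM-1 ligand sum was 0.400 ± 0.00782 in control and 0.841 ± 0.0301 in LINC01638 siRNA libraries.

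NCR3LG1, the NKp30 ligand gene on chromosome 11 (17351726 to 17377341, plus strand), stood at 17.5, 20.4 and 17.9 CPM in control and at 44.7, 39.1 and 39.8 CPM in LINC01638 siRNA libraries. This was a 2.22-fold difference (log2 fold change 1.15, SE 0.0710) with no overlap, and no 50-base window of its transcripts occurs in those of another gene.

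Ordered by level per kilobase, NECTIN2 was highest in control libraries (86.1 ± 6.50 CPM per kilobase), followed by PVR (32.3 ± 2.69), MICA (20.9 ± 1.16), MICB (15.3 ± 0.629) and ULBP3 (7.99 ± 1.08). NCR3LG1 (2.89 ± 0.241) and ULBP2 (2.66 ± 0.127) overlapped each other, and RAET1G (0.250 ± 0.0351) and ULBP1 (0.152 ± 0.0452) were lowest. Under LINC01638 siRNA the order was NECTIN2, MICB, PVR, MICA, ULBP3, ULBP2, NCR3LG1, ULBP1 and RAET1G. There MICA (24.7 ± 2.45) overlapped ULBP3 (21.5 ± 1.19), and ULBP1 (0.699 ± 0.0689) overlapped RAET1G (0.665 ± 0.0297). Levels were not corrected for sequence shared with other genes. The place of ULBP2, with 67.8% of its windows in no other gene, is therefore uncertain beside NCR3LG1 in control libraries, where the 2 overlapped. Under LINC01638 siRNA, ULBP2 (8.28 to 9.74 CPM per kilobase) lay above NCR3LG1 (6.07 to 6.95) without overlap. Reads lost to shared sequence would make the ULBP2 level too low rather than too high.

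The profiles of the members over the 6 libraries fell close to each other in a few pairs. Each profile was taken as log2(CPM + 0.05) minus the control mean, and the root mean square difference was lowest for MICA and PVR (0.0661), then for MICB and ULBP3 (0.115) and for MICB and ULBP2 (0.153). Such a distance largely restates how alike 2 log2 fold changes are, 0.24 and 0.21 for MICA and PVR, 1.54 and 1.43 for MICB and ULBP3. The members were selected on that comparison, and no background of pairs of other genes was taken, so the close pairs are no separate result. Among 10503 protein-coding genes averaging 5 CPM or more, the 3 closest to ULBP1 were ANKRD1 (0.255), SERPINB9 (0.315) and PLEKHA6 (0.339). Their log2 fold changes were 2.15, 1.81 and 1.70. They were picked for closeness to a gene that rose, so their rise is no separate result.

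Other ligands and proteins that bear on recognition by NK cells moved in both directions. Over all 12 lists of related genes and markers, 38 of 108 tested genes rose and 44 fell (backgrounds 26.3% and 29.6%; edgeR), and 49 rose and 32 fell with library totals in place of TMM scaling. Their median log2 fold change was −0.01, beside −0.00 over all genes tested.

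Among 4 relatives of PVR and NECTIN2, NECTIN4 rose from 0.174 ± 0.0753 to 0.690 ± 0.235 CPM (edgeR adjusted p = 2.18e-04) and NECTIN3, the PVR and NECTIN2 partner in junctions, fell from 43.2 ± 2.23 to 32.8 ± 0.999 CPM (6.79e-06). NECTIN1 and CADM1 did not pass. NECTIN4 was below the stricter filter of 1 CPM in 3 libraries. Of 12 tested ligands of other activating and adhesion receptors, 6 rose and 3 fell (median log2 fold change 0.12). ICAM1, the LFA-1 ligand that lets NK cells adhere, rose from 153 ± 11.1 to 258 ± 13.0 CPM (edgeR adjusted p = 1.03e-09). PDGFD, whose product engages NKp44, rose from 3.62 ± 0.293 to 8.25 ± 0.529 CPM. NID1, another NKp44 ligand gene, fell from 208 ± 23.9 to 158 ± 8.35 CPM, and ICAM3 fell from 6.02 ± 0.288 to 3.61 ± 0.0959 CPM.

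Of 18 genes for ligands of inhibitory receptors, 4 rose and 8 fell, with a median log2 fold change of −0.09. The split was 6 higher and 5 lower with library totals, and 4 fell without control replicate C. B2M, the light chain of MHC class I, rose from 383 ± 15.1 to 561 ± 12.4 CPM (edgeR adjusted p = 1.98e-08), and CEACAM1, an inhibitory adhesion gene, from 0.324 ± 0.206 to 2.08 ± 0.383 CPM. CDH1 (E-cadherin), a KLRG1 ligand, fell from 8.14 ± 0.806 to 3.58 ± 0.219 CPM, and CD200 from 27.1 ± 2.83 to 17.6 ± 1.22 CPM. HLA-B, the MHC class I gene next to MICA, stood at 222 ± 21.9 and 246 ± 17.0 CPM and did not pass (edgeR adjusted p = 0.0660), but it passed as higher in 8 of 15 alternatives, with 0.00360 under library totals, 0.00462 without control replicate B and 0.0341 without LINC01638 siRNA replicate B. HLA genes are highly polymorphic and alike, so their counts are uncertain.

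Genes that act on ligands after synthesis were also read. Of 12 tested shedding genes, proteases and their inhibitors among them, 2 rose and 6 fell (median log2 fold change −0.06). The split was 6 and 4 with library totals and 5 and 5 with protein-coding genes only, and 1 rose without LINC01638 siRNA replicate B. Such mixed counts give no direction for shedding. The 2 that rose were the proteases MMP2 and MMP14 (log2 fold changes 0.28 and 0.20), and the protease ADAM17 was among those that fell (−0.15). The metalloprotease inhibitors TIMP3, which blocks ADAM17, and RECK fell from 48.4 ± 5.80 to 17.3 ± 1.44 CPM and from 26.6 ± 1.60 to 15.9 ± 0.703 CPM (edgeR adjusted p = 3.66e-10 and 1.66e-08). RHBDF2 (iRhom2), which carries ADAM17 to the surface, fell from 32.5 ± 3.24 to 23.1 ± 2.32 CPM, and ADAM9 from 554 ± 49.7 to 468 ± 12.6 CPM. Among 8 genes of GPI attachment and remodelling, which act on ULBP1, ULBP2 and ULBP3 and on many other proteins, 2 rose and 4 fell (median −0.12; 3 and 3 with library totals). PIGK, the catalytic subunit of the GPI transamidase, fell from 48.3 ± 3.50 to 24.0 ± 3.30 CPM (edgeR adjusted p = 6.65e-08). PGAP2 and PGAP3 fell by 0.56 and 0.60 on the log2 scale, and PIGS rose by 0.39.

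Of 28 factors known to act on these ligand genes, 10 rose and 13 fell (median −0.04), against 13 and 8 with library totals. JUN, an AP-1 subunit that can drive PVR, fell from 696 ± 21.5 to 264 ± 5.69 CPM (edgeR adjusted p = 8.67e-14) and MYC from 138 ± 4.52 to 83.9 ± 1.96 CPM (1.48e-10). CHEK2, a kinase of the DNA damage response, fell from 20.9 ± 0.310 to 13.0 ± 0.567 CPM, while NFKB1 rose from 58.0 ± 2.41 to 90.8 ± 3.13 CPM. Of 10 genes for death receptors and their signalling, the granzyme B inhibitor and the 2 interferon-γ receptor chains, 8 rose and 2 fell (median 0.29), with 6 to 8 higher when 1 library was left out. SERPINB9, the granzyme B inhibitor, rose from 15.2 ± 0.202 to 53.1 ± 3.33 CPM (edgeR adjusted p = 4.24e-14). The death receptor genes FAS and TNFRSF10B rose from 5.42 ± 0.485 to 12.3 ± 1.44 CPM and from 138 ± 10.0 to 194 ± 3.20 CPM, while TNFRSF1A fell from 253 ± 18.0 to 192 ± 4.72 CPM.

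The label of an epithelial line was read against 6 markers. KRT8 and KRT19 were high and fell, from 2604 ± 106 to 1813 ± 154 CPM and from 1422 ± 64.7 to 542.5 ± 72.8 CPM, while EPCAM stood at 0.377 ± 0.0682 CPM in control and rose to 1.38 ± 0.201 CPM (edgeR adjusted p = 2.33e-06). In all 1 of the 6 rose and 5 fell. Of 8 stromal and endothelial markers 4 rose and 3 fell, and 1 was too low to test; their summed level was 557 to 631 CPM in control and 454 to 476 CPM in LINC01638 siRNA libraries. The stromal marker THY1 was high and fell from 407 ± 23.1 to 294 ± 8.05 CPM. DCN fell from 54.2 ± 3.37 to 34.9 ± 4.32 CPM and MME rose from 36.0 ± 2.75 to 45.6 ± 1.25 CPM. The endothelial marker CDH5 rose from 1.05 ± 0.0879 to 1.78 ± 0.191 CPM.

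**Figure D3:**
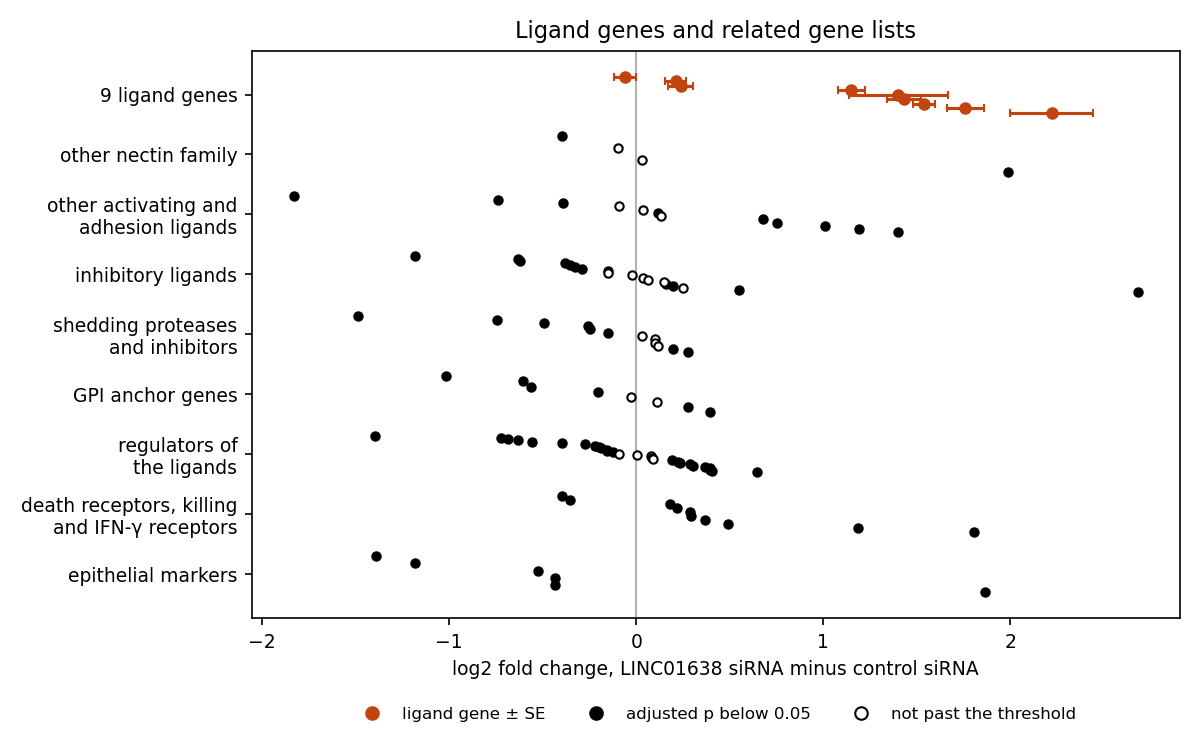
Points are log2 fold changes (horizontal axis, LINC01638 siRNA minus control siRNA) of the 9 ligand genes with SE and of tested genes in 8 related lists (rows); among the related genes, filled points passed an edgeR adjusted p of 0.05 and open points did not. Of the ligand genes 6 lie above 1, whereas the lists spread to both sides of 0.

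Within 1000 kb of the ligand genes, other genes passed in both directions at every locus except NCR3LG1, where none fell. Over all genes tested 26.3% rose and 29.6% fell (edgeR). Beside MICB, DDX39B rose by 0.49 on the log2 scale (edgeR adjusted p = 5.82e-07), and HCP5, a non-coding RNA gene on the same strand that overlaps MICA, rose by 0.26 (0.0309, and 0.0505 to 0.107 with no filter or without control replicate A, B or C or LINC01638 siRNA replicate B). The flanks of the ULBP and RAET1 cluster went both ways. LRP11 fell by 0.77 on the log2 scale (edgeR adjusted p = 7.90e-08; a fall of 0.31 and adjusted p = 0.243 in counts without strand), PCMT1 rose by 0.23 and MTHFD1L fell by 1.11. Next to NECTIN2, TOMM40 and APOE did not pass. Within 1000 kb of the 4 ULBP and RAET1 members, 5 of 21 other tested genes rose and 4 fell, and within 1000 kb of MICA and MICB 23 of 88 rose and 30 fell. Around PVR and NECTIN2 17 of 79 rose and 18 fell. Around NCR3LG1 11 of 18 rose and none fell, with a median log2 fold change of 0.23. Among them, the antisense gene ENSG00000260196, 3.31 kb beyond NCR3LG1, rose from 1.78 ± 0.435 to 4.93 ± 0.307 CPM (edgeR adjusted p = 7.33e-08), whereas NUCB2, 1.75 kb on the other side, stood at 63.6 ± 4.66 and 59.4 ± 3.57 CPM and did not pass (0.174; 0.0331 without control replicate A). The genes with the largest log2 fold changes in that window (3.82 and 7.02), singled out after their values were seen, were the near-identical acute phase genes SAA1 and SAA2. SAA1 rose from 0.264 ± 0.150 to 3.87 ± 1.50 CPM (edgeR adjusted p = 1.29e-04). SAA2 was at 0 in every control library and rose to 0.304 ± 0.115 CPM (1.73e-05), so the fitted fold change of SAA2 is no measure of size.

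**Figure D4:**
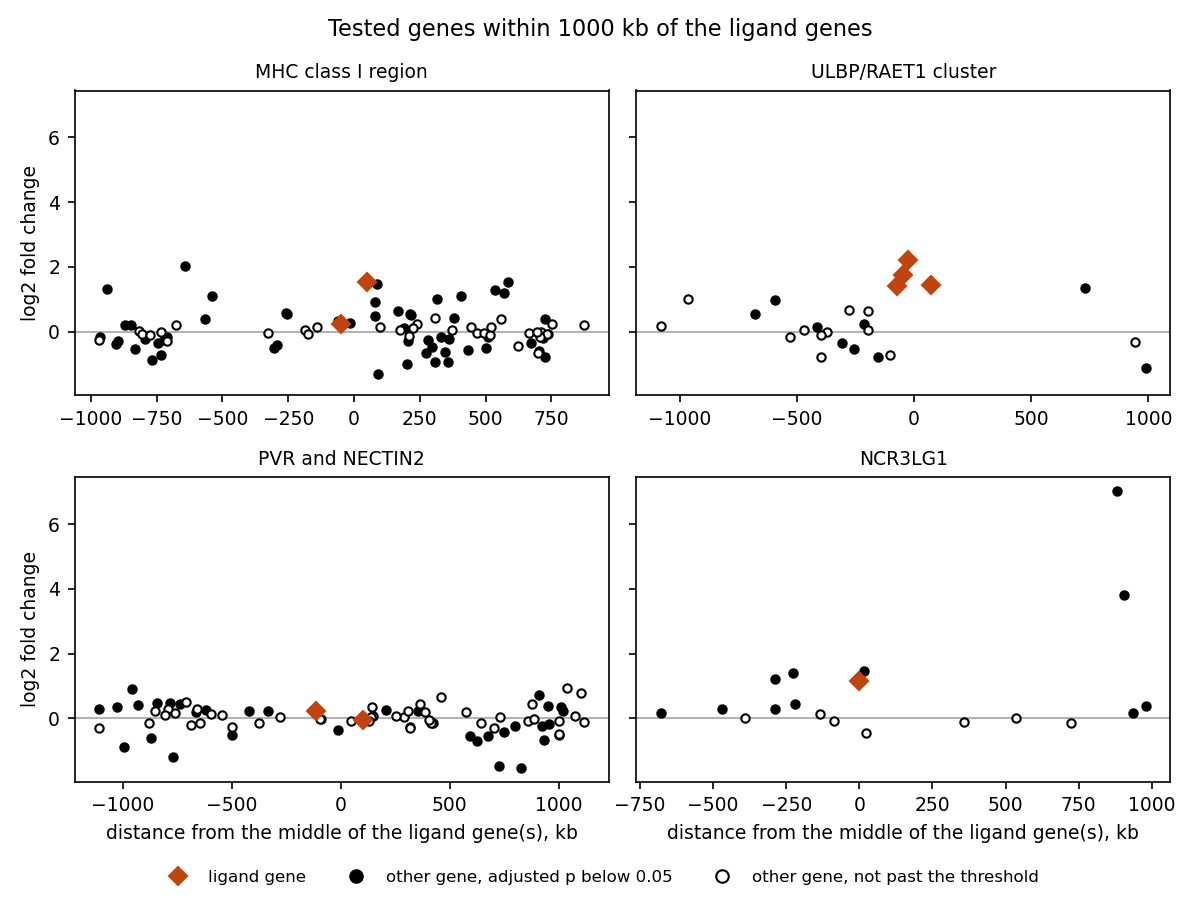
Points are tested genes within 1000 kb of the ligand genes, with distance from the middle of the ligand gene or genes (horizontal axis, kb) against log2 fold change (vertical axis); diamonds are ligand genes and filled circles passed an edgeR adjusted p of 0.05. The 4 ULBP and RAET1 diamonds stand at 1.40 to 2.22 among neighbours on both sides of 0, and the PVR and NECTIN2 diamonds lie near 0.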

How the data were processed

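The submitters' processing notes name STAR 2.7.10b, R 4.2.1 and GRCh38; the annotation release is not given in the sources used here. Deposited values are whole-number counts per gene, unstranded and for each strand, in 1 table per library; the reverse-strand column was used, as the directional kit implies. The 4 rows naming no gene were left out (unmapped 12.3% and 13.0% of fragments; outside exons 9.18% and 13.2%, over several genes 7.49% and 7.17% of mapped reads, control and LINC01638 siRNA means), and reads mapping to several places are listed as 0.

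Symbols matched 61918 identifiers exactly and 707 without version; positions and exon lengths (union of exons) came from GENCODE 29. The main test was edgeR 4.0.16's quasi-likelihood F test after filterByExpr (minimum count 10, total 15) and TMM scaling, adjusted by Benjamini-Hochberg over 18569 genes, threshold 0.05. Log2 fold changes have control siRNA as their base; SE is the absolute log2 fold change over the root of F; levels are mean ± SD, n = 3. Simulated data with 200 changed genes gave 76.0% of 50 genes changed 2-fold and 6.38% false calls among 141. Far more genes than that were called in the real libraries, so these rates need not hold for them. Alternatives used DESeq2 1.42.0 and limma 3.58.1.

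The members and the gene lists were chosen with earlier results of these data known. Genes named by rule are all members and LINC01638, and up to 4 genes per list with the lowest p (or 2 with the highest level where none passed). So are up to 2 tested neighbours per side and 3 nearest profiles of the member with the largest change. NECTIN1, CADM1, MMP2, MMP14, ADAM17 and some markers were named after their values were seen. KIR2DL5A, on the receptor list, was not analysed here.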

Additional observations from a re-analysis of the deposited data

How the results depend on the processing

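Under 15 alternatives (DESeq2 size factors, library totals, DESeq2, limma-voom, no filter, a stricter filter, the replicate letter as a block, the unstranded column, protein-coding genes only, and leaving out each of the 6 libraries) 8 members passed as higher, or 7 with the stricter filter, which removed RAET1G. Of all genes tested, 4887 of 18569 were higher in the reported fit and 6349 of 18569 with library totals. The stricter filter gave 4550 of 13815 and protein-coding genes only gave 4442 of 13586. Higher genes numbered 4372 to 4681 and lower genes 5049 to 5409 when 1 library was left out. The members were selected on this comparison, so their passing in refits of the same libraries is no separate result. Among members, RAET1G came to 0.97 in the unstranded column and 1.54 without control replicate A, and ULBP1 to 2.00 in the unstranded column and 2.47 without control replicate B. Library totals gave 1.64 for MICB, 1.86 for ULBP2, 0.31 for PVR and 0.04 for NECTIN2. Of 61 other genes named by rule, 51 kept their side of the threshold in all alternatives, and 45 kept both that and their sign. None that changed sign had passed in the reported fit. Same-lettered libraries did not deviate together (correlations across genes −0.08, −0.02 and −0.02). Deviations from means of 3 libraries are tied to each other, so these values cannot decide whether the letters mark pairs. With the replicate block 4676 genes were higher and 5286 lower, and 8 members passed. Counts of 15 to 28 for ULBP1 and RAET1G in control libraries limit the precision of both.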
